A study of Mus musculus with 72 samples.

Results

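The 7 genes of purine and urate degradation Ada, Pnp, Gda, Xdh, Uox, Urad and Allc were followed in mice fed a control or a methionine- and choline-deficient (MCD) diet, in liver and in the brain's suprachiasmatic nucleus (SCN). They were chosen by symbol, as the enzymes that lead from adenosine and guanine to urate and on to allantoin and its breakdown. The liver count table lists 22823 genes and held 6 of the members, all but Allc. The SCN table lists 15759 genes and held 4 of them, Pnp, Gda, Xdh and Uox. All members with a row passed the filter on low counts.

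Purines are degraded by a short chain of enzymes. Adenosine deaminase (Ada) turns adenosine into inosine, purine nucleoside phosphorylase (Pnp) splits inosine and guanosine into sugar phosphate and base, and guanine deaminase (Gda) turns guanine into xanthine. Xanthine dehydrogenase (Xdh), a molybdenum enzyme, oxidises hypoxanthine and xanthine to urate. In most mammals, though not in humans, urate oxidase (Uox) in liver peroxisomes then opens the way to allantoin, through the hydrolase encoded by Urah and the decarboxylase encoded by Urad, while allantoicase (Allc) acts on allantoate.

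The 72 libraries came from C57BL/6J mice of 8 to 12 weeks. They formed 24 groups by tissue, diet and the time of death in circadian hours (CT), with 6 times lying 4 h apart from CT00 to CT20. Mice of every group were housed singly in a light-dark cycle for 10 days and then in constant darkness on day 11, eating the MCD diet or its control of equal energy throughout, and no genotype was altered. Each group held 3 libraries, 2 labelled male and 1 labelled female, so that a diet was represented by 18 libraries per tissue; the growth protocol speaks of males alone, and the sample labels were followed. Liver came from the left lobe and the SCN, the hypothalamic nucleus that holds the central clock, from laser-microdissected brain sections.

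Library totals ran from 52.6 to 86.7 M counts in liver (median 64.4 M) and from 23.3 to 79.8 M in SCN (median 57 M). Of 8 hepatocyte markers all had a row in the liver table, at a summed 57870.2 to 121354 CPM (counts per 1000000 library counts, after scaling between libraries), and 2 had one in the SCN table, at a summed 2.21 to 27.3 CPM. All 9 markers of SCN neurons had a row in the SCN table, at a summed 1917 to 4637 CPM. Liver libraries fell into those with low mt-Nd6 (8 control, 13 MCD) and those with high mt-Nd6 (10 control, 5 MCD). The liver library called control CT08 a, one of a pair of control males that share a column name, lay apart: its median gene was 0.29 log2 from the median of the other controls, against 0.148 to 0.199 in the 17 others. Of the MCD libraries, CT12 2 (0.275) and CT04 1 (0.252) lay farther from their own diet's median than the others (0.163 to 0.203). Liver results were also fitted without each of these libraries, and leaving out either MCD library changed no call of a member in liver. No label says how the replicates were drawn from cages or litters, so p-values measure only the spread between these samples, which may be technical.

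The regions before the start sites of Uox, Urad and Gda are shown because the first pair fell on MCD in liver and Gda was rhythmic in both tissues. Each is the 250 bases before the RefSeq start, 5′ to 3′ on the gene's strand, in build GRCm38.p6. Uox lies at chr3:146596899-146597148 (plus strand), Urad at chr5:147322441-147322690 (minus strand) and Gda at chr19:21472662-21472911 (minus strand).
Uox: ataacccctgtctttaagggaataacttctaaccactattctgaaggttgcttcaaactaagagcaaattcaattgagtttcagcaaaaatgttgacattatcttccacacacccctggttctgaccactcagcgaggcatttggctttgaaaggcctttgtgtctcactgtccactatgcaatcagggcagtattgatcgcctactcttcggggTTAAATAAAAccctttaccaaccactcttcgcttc
Urad: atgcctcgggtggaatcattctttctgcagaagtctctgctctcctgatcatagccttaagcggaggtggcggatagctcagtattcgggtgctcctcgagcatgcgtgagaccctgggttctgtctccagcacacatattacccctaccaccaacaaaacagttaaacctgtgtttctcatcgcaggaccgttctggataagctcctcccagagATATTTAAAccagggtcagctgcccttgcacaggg
Gda: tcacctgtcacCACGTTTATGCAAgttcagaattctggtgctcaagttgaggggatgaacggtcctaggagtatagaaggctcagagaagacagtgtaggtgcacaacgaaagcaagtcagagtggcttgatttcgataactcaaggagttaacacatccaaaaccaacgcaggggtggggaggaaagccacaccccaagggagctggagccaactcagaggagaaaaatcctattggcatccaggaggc
In Uox and Urad the capitals mark the longest run of A and T in the last 50 bases, 10 and 9 bases long, which in both begins 35 bases before the start. A run at least as long was held by 4.41% and 6.63% of the same windows of 32851 RefSeq promoters. In Gda the capitals mark an E-box variant (CACGTT) that overlaps a D-box variant (TTATGCAA) by 1 base, from 239 bases before the start. In 300 bases per promoter and on both strands, these variants were held by 4.68% and 0.743% of promoters, and both together by 0.0274%. The runs and variants were picked after the sequences were read. The E-box CACGTG (7.15% of promoters), the D-box TTATGTAA (0.938%), the ROR half-site AGGTCA (16.3%) and the TATA box TATAAA (13.6%) were searched first and had no match in the 6 member promoters of the RefSeq table, which held none for Xdh. A match describes letters, not a bound factor.

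By gene ID in GENCODE M21 (GRCm38), the genes lay on different chromosomes: Ada at chr2:163726584-163750239, Pnp at chr14:50931082-50965237, Gda at chr19:21391307-21473445, Xdh at chr17:73883895-73950196, Uox at chr3:146570426-146632305 and Urad at chr5:147314984-147322440. Allc, matched by symbol, lay at chr12:28553755-28582523. Pnp overlaps the protein-coding genes Pnp2, its paralog, and Gm49342 on the same strand and Gm38316 on the opposite strand, Xdh a processed pseudogene on the same strand and Uox the gene Dnase2b on the opposite strand, so their counts are uncertain as far as the authors' counting could split or share reads. Ada, Gda, Urad and Allc overlap no annotated gene.

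Levels per length were compared first, as CPM per kb of annotated exon, on the control diet. In liver, Uox stood at 323 ± 70.5 CPM per kb (SD, n = 18), Urad at 46.3 ± 11.7, Xdh at 22.1 ± 3.85, Pnp at 20.1 ± 5.83, Gda at 5.13 ± 2.31 and Ada at 0.854 ± 0.2. Xdh and Pnp, neighbours in that order, differed by less than their SDs, but Pnp's place rested on the gene table. In the exon-bin sums control Pnp averaged 24 ± 7.89 CPM and Xdh 279 ± 46.7 CPM (SD, n = 16), against 80 ± 23.2 and 203 ± 35.3 CPM (n = 18) in the gene table, none of these 4 values per length. In SCN the order was Gda at 30.8 ± 7.78, Pnp at 15.9 ± 1.79, Uox at 0.649 ± 0.2 and Xdh at 0.204 ± 0.119 CPM per kb. In the gene table the other neighbours in both orders differed by more than either SD. Urate oxidase led in liver, and guanine deaminase in the SCN.

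Tested between tissues on the control diet, all 4 shared members differed, as did 91.6% of 14491 genes (edgeR quasi-likelihood test on all 72 libraries, with p-values adjusted over all genes by Benjamini and Hochberg, as throughout). SCN minus liver was -9.95 ± 0.18 log2 (SE) for Uox (adjusted p = 1.12e-44) and -7.79 ± 0.28 for Xdh (1.37e-31). It was -1.28 ± 0.06 for Pnp (5.03e-27) and 1.69 ± 0.09 for Gda (5.69e-24). With library totals in place of TMM scaling the Pnp value was -0.56. The size of the other 3 differences depended on the scaling too. Scaled within each tissue, control means in liver and SCN were 1615 ± 353 and 3.25 ± 1 CPM for Uox and 203 ± 35.3 and 1.87 ± 1.09 CPM for Xdh (SD, n = 18 each). For Gda they were 32 ± 14.4 and 192 ± 48.5 CPM, a wider distance than the fitted one, while those of Uox and Xdh were narrower. In the exon-bin sums, scaled within each tissue, control Pnp averaged 24 ± 7.89 CPM in liver (n = 16) and 27.4 ± 3.42 CPM in SCN (SD, n = 18), while the gene tables scaled that way gave 80 ± 23.2 and 63.3 ± 7.13 CPM (n = 18 each). A fit between tissues on the bin sums was not run.

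In liver, MCD was compared with control at each of the 6 times and the differences were averaged. Uox, which oxidises urate, and Urad, which acts later on the way to allantoin, fell on MCD, while Xdh, which makes urate, and Ada, at the head of the chain, rose. Pnp and Gda did not pass the test. So 4 of 6 members were called at an adjusted p under 0.05, against 46.6% of the 20249 genes tested. Of the members 2 rose and 2 fell, and of all genes 25.3% and 21.2%. The members' median change was -0.07 log2 and that of all genes 0.02. At single times 12.6%, 18.2%, 1.3%, 15.2%, 12.5% and 11.3% of genes were called from CT00 to CT20, so that CT08 gave few calls of any gene.

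**Figure D1:**
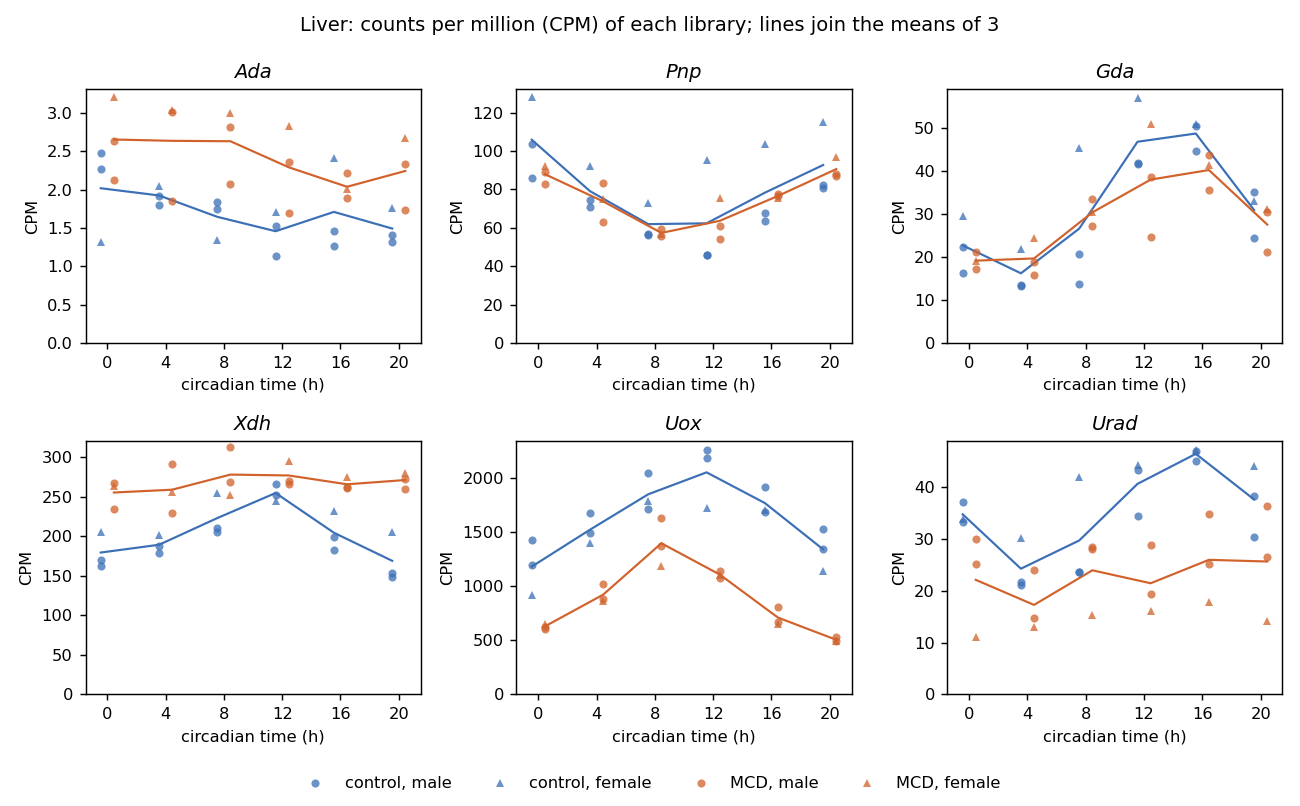
CPM of the 6 members in each liver library against circadian time in hours, by diet (colour) and sex (circles male, triangles female); lines join the means of 3 libraries. Every MCD point of Uox lies below every control point of the same time.

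Ada was the least abundant of the 6 members with a liver row. Over the 18 control libraries its lowest, median and highest values were 1.14, 1.73 and 2.47 CPM, and over the 18 MCD libraries 1.69, 2.34 and 3.21 CPM. The ranges overlapped, and MCD libraries lay above all controls of their time only at CT08. Ada rose by 0.50 ± 0.10 log2 (SE, 95% interval 0.28 to 0.71, edgeR adjusted p = 0.000273), from a mean of 1.71 ± 0.401 to 2.42 ± 0.495 CPM (SD, n = 18 each), and by 0.76 log2 in counts summed over exon bins, an alternative chosen after the data were seen. Macrophage markers moved the same way, with 10 of 11 called higher on MCD, where 25.3% of all genes were higher. Their summed level was 376 to 965 CPM on control (median 496) and 535 to 1239.7 on MCD (median 687). Of 10 lymphocyte markers, all with a row, 0 were called higher and 1 (Cd4) lower, where 21.2% of all genes were lower, with a list median of -0.13 log2. Their summed level lay at 4.82 to 15.6 CPM on control and 2.98 to 13.4 CPM on MCD. The part of these cells in the Ada result was not tested, and in tissue RNA fewer cells of a type and less RNA per cell cannot be told apart.

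Pnp in liver spanned 45.6 to 128 CPM on control (median 77.4) and 54.4 to 96.7 CPM on MCD (median 76). The diets overlapped at all 6 times. The change over both sexes was -0.06 ± 0.06 log2 (95% interval -0.19 to 0.07, edgeR adjusted p = 0.463). Gda spanned 13.3 to 56.9 CPM on control (median 31.4) and 15.9 to 50.9 CPM on MCD (median 28.8), with a change of -0.07 ± 0.10 log2 (interval -0.27 to 0.14, edgeR adjusted p = 0.626). Only at CT16 did all 3 MCD libraries (35.5, 41.5 and 43.7 CPM) lie below the 3 controls (44.8, 50.5 and 51 CPM).

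Xdh lay at 148 to 266 CPM on control (median 203) and at 229.7 to 312 CPM on MCD (median 266). It rose by 0.41 ± 0.04 log2 (interval 0.32 to 0.51, edgeR adjusted p = 3.45e-08), and its SD over libraries was 35.3 CPM on control and 19.7 CPM on MCD. At CT20 the controls read 148, 153 and 206 CPM and the MCD libraries 260.2, 273 and 279.8 CPM. At CT12 the controls read 245, 253 and 266 CPM and the MCD libraries 266, 269.6 and 295 CPM. The diets were separate at CT00, CT04, CT16 and CT20 and met at CT08 and CT12, the times at which the controls were highest. The share of all genes whose diets separate at single times was not computed, for this or any other member.

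Uox, the most abundant member, fell on MCD over the day as a whole. At CT00 the 3 controls read 917, 1190.2 and 1428 CPM and the 3 MCD libraries 603, 626 and 653 CPM. At CT04 they read 1396, 1492 and 1669 against 863, 877 and 1019 CPM, and at CT08 1713, 1781 and 2043 against 1187, 1368 and 1627 CPM. The gap between the nearest libraries of the 2 diets was narrowest at CT08. At CT12 the values were 1715, 2176 and 2252 against 1076, 1099 and 1142 CPM, at CT16 1683, 1701 and 1909.9 against 651, 669 and 806 CPM, and at CT20 1143, 1344 and 1526 against 491, 493 and 529 CPM. No MCD library reached the lowest control of its time at any of the 6 times, an order in this direction that 0.677% of genes tested showed. The mean went from 1615 ± 353 to 877 ± 324 CPM (SD, n = 18 each), a change of -0.94 ± 0.05 log2 (interval -1.04 to -0.83, edgeR adjusted p = 3.07e-13), which ranked 8 by p among the 20249 genes.

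Urad spanned 21 to 47.1 CPM on control (median 35.7) and 11.1 to 36.3 CPM on MCD (median 24.6). It fell by 0.67 log2 (SE 0.14, interval -0.95 to -0.38, edgeR adjusted p = 0.000289). The diets did not overlap at CT00, CT12 and CT16. At CT16, for instance, controls read 45.1, 46.9 and 47.1 CPM and MCD libraries 17.9, 25.1 and 34.8 CPM, the lowest being the female. In the males alone the change was -0.29 log2 (edgeR adjusted p = 0.0239), less than the value over both sexes by more than 1.5 times. Of 8 hepatocyte markers 5 were called lower on MCD and none higher, where 21.2% of all genes were lower, with a list median of -0.31 log2. Their summed level, mostly Alb (0.14 log2, not called), was 82048 to 120729 CPM on control (median 100326) and 57870.2 to 121354 on MCD (median 100498). Erythrocyte markers were called lower for 4 of 6 (median -0.87 log2) and higher for 0. Stellate markers were called higher for 3 of 7 (median 0.32 log2), where 25.3% of all genes were higher, and lower for 0. Of 8 endothelial markers 2 were called higher and 2 lower (median 0). The part of hepatocyte content or of these other cells in the members' changes was not tested.

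The liver changes are relative to the median gene. TMM scaling put that gene at 0.02 log2 and scaling by library totals at 0.27 log2, and the share of called genes that were higher on MCD was 54.4% and 87.3%. With library totals Uox (-0.68) and Urad (-0.42) still fell and Xdh (0.67) and Ada (0.74) still rose, while Pnp and Gda were both called, at 0.19 log2. With the mt-Nd6 kind of library as a term, Ada stood at 0.46, Xdh at 0.41, Uox at -0.95 and Urad at -0.68 log2, all 4 still called.

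At single times fewer members passed. Uox fell at CT00 (-0.89 log2), CT04 (-0.72), CT12 (-0.88), CT16 (-1.32) and CT20 (-1.40), each with an SE of 0.12 or 0.13 and an edgeR adjusted p of at most 0.000314. At CT08 it stood at -0.41 ± 0.12 (interval -0.66 to -0.16, edgeR adjusted p = 0.0996), and without control CT08 a at -0.50 with an adjusted p of 0.0199. Xdh rose at CT00 (0.51 ± 0.11), CT04 (0.45), CT16 (0.38) and CT20 (0.69), and stood at 0.33 at CT08 and 0.12 at CT12 (adjusted p = 0.158 and 0.526). Its call at CT16 was lost without MCD library 1, 2 or 3 or control library 1 or 2 of that time (edgeR adjusted p from 0.0558 to 0.103). At CT08 edgeR called 0 of 6 members, with 3 at an unadjusted p under 0.05, DESeq2 called 1 and limma-trend 0. Of all 20249 genes 2550 lay at an unadjusted edgeR p under 0.05 at CT08, and DESeq2 called 656 and limma-trend 265. Urad lay between -0.37 and -0.95 log2 and Ada between 0.28 and 0.65 at the single times, none called. At CT12 Urad had an edgeR adjusted p of 0.0555, and it was called without any 1 of 9 libraries (0.0331 to 0.0499): MCD CT00 2 or 3, CT04 2, CT12 1, CT20 2 or 3, or control CT04 3, CT08 3 or CT08 a. Ada at CT12 was called without control CT00 3 (0.0459). DESeq2 also called Urad at CT12 and CT16 (0.0223 and 0.0381).

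**Figure D2:**
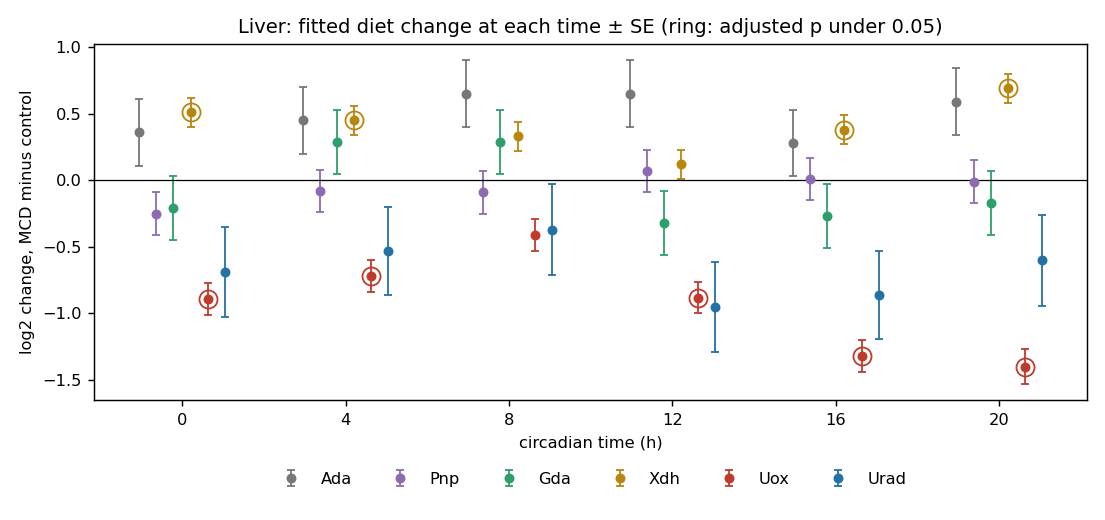
Fitted log2 change in liver, MCD minus control, with its standard error at each circadian time in hours for the 6 members; a ring marks an adjusted p under 0.05. Uox ran from -0.41 at CT08 to -1.40 at CT20, and Xdh was lowest at CT12 with 0.12.

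A 24 h cosine and sine curve through the 6 time means was tested for rhythm, and its size is given as the log2 distance from peak to trough. On the control diet Pnp, Gda, Xdh and Uox were rhythmic in liver, 4 of 6 members against 17.8% of genes. On MCD Pnp, Gda and Uox were, 3 of 6 against 28.2%. Gda had the widest curve on control at 1.60 log2 (edgeR adjusted p = 1.17e-05), with a peak at 15.1 ± 0.5 h (SE), and 1.16 on MCD (0.000314) with a peak at 13.8 ± 0.6 h. Pnp, with 0.80 and 0.66 log2 (adjusted p = 0.000281 and 0.00114), peaked at 22.5 ± 0.5 and 21.4 ± 0.5 h, far from the other rhythmic members.

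Uox was the 1 member of 6 whose rhythm was called different between the diets, as it was for 4.87% of genes. Its curve spanned 0.78 log2 on control (edgeR adjusted p = 1.85e-05) and 1.39 log2 on MCD (2.36e-09), 0.62 wider on MCD (edgeR adjusted p of the difference in rhythm = 0.00198), and 0.40 wider in the exon-bin sums (0.00471). The peak lay at 11.3 ± 0.4 h on control and 8.7 ± 0.2 h on MCD. On control the time means climbed to CT12, where the libraries read up to 2252 CPM, and on MCD to CT08, with up to 1627 CPM. Xdh spanned 0.54 log2 on control (edgeR adjusted p = 0.000396, peak at 10.7 ± 0.6 h) and 0.10 log2 on MCD (adjusted p = 0.667), but the difference between the diets had an adjusted p of 0.0835. It was called without MCD CT08 1 (0.0414) or without control CT20 3 (0.0332), and by DESeq2 (0.0141). Urad had 0.80 log2 on control with an adjusted p of 0.0998 and 0.42 on MCD, and Ada 0.40 and 0.39, not called. Urad on control was called without control CT04 3 (0.0495) or control CT08 3 (0.021), by DESeq2 (0.049), and in the males alone at 1.00 log2 (0.00733).

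Sex was examined because each group held both. The female was replicate 3 in every group, so sex and anything else that the third replicates share cannot be told apart in the results by sex. Averaged over the diets, Pnp was 0.34 ± 0.07 log2 higher in females (edgeR adjusted p = 0.00107), Gda 0.43 ± 0.10 higher (0.00741) and Uox lower, at -0.18 ± 0.05 (0.0341), 3 of 6 members against 9.44% of genes. The Uox call was lost without any 1 of 9 libraries (adjusted p from 0.0501 to 0.0953): control CT00 3, CT04 2 or 3, CT12 2 or 3, CT16 1, CT20 1 or 3, or MCD CT08 3. It was also lost in the exon-bin sums (-0.15 log2, 0.109) and with library totals (-0.13, 0.0711). Xdh, at 0.13 log2 higher in females (adjusted p = 0.0899), was called without MCD CT08 1 (0.0454) or 3 (0.0335). The diet change itself differed by sex for Urad and Pnp, 2 of 6 members against 1.77% of genes.

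Urad fell more in females than in males. The 6 control females read 30.1 to 47.1 CPM (median 43) and the 6 MCD females 11.1 to 17.9 CPM (median 14.7), with no overlap. The 12 control males read 21 to 46.9 CPM (median 33.8) and the 12 MCD males 14.7 to 36.3 CPM (median 27.3), with wide overlap. Means were 40.2 ± 6.69 and 14.6 ± 2.41 CPM in females and 33.2 ± 9.29 and 26.8 ± 5.94 CPM in males (SD). The female diet change was lower than the male by 1.19 log2, as a fitted difference of -1.19 ± 0.17 (interval -1.55 to -0.83, edgeR adjusted p = 0.000377). Leaving out each library in turn kept it between -1.26 and -1.08.

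Pnp averaged 101 ± 19.2 CPM in control females and 78.7 ± 14.2 CPM in MCD females. The male means were 69.4 ± 17.2 and 73.1 ± 13.5 CPM. At each time the MCD female lay below the control female, from 128 and 92.2 CPM at CT00 to 115 and 96.7 CPM at CT20. The fitted difference of the diet change, female minus male, was -0.46 ± 0.10 log2 (interval -0.67 to -0.25, edgeR adjusted p = 0.0177). It was -0.51 with an adjusted p of 0.0565 in the exon-bin sums. With 1 female at each time, sex rests on 6 females per diet.

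**Figure D3:**
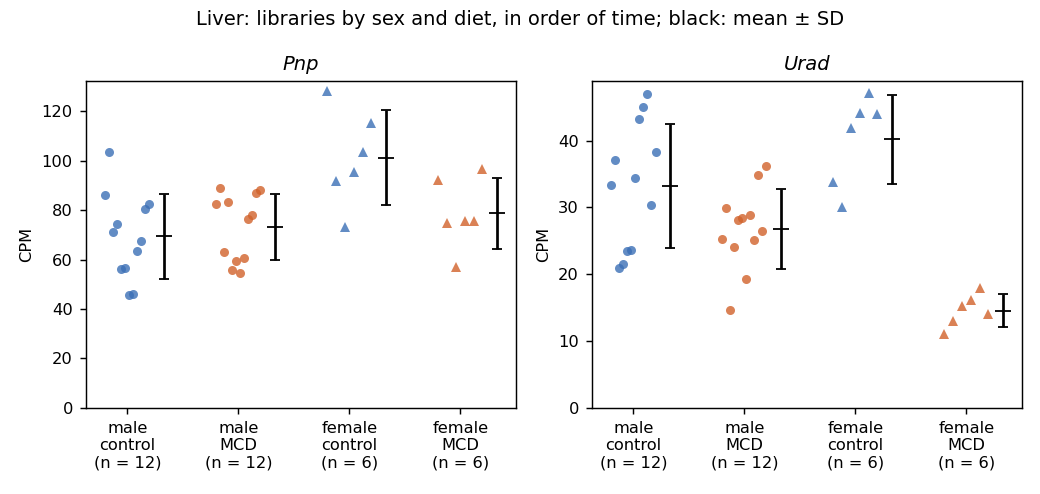
CPM of Pnp and Urad in each liver library by sex and diet, in order of time within a group, with mean and SD in black. The 6 MCD females of Urad, at 11.1 to 17.9 CPM, lie below all 6 control females.

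In SCN the diet moved no member past the test. EdgeR called 0 of 4, with 1 at an unadjusted p under 0.05, and DESeq2 and limma-trend each called 0. Of all 15759 genes edgeR called 0.0635%, with 746 at an unadjusted p under 0.05, and DESeq2 called 48 and limma-trend 11. The changes were 0.17 ± 0.07 log2 for Gda (interval 0.03 to 0.31, edgeR adjusted p = 0.855), -0.04 ± 0.05 for Pnp (-0.14 to 0.05), 0.08 ± 0.19 for Uox (-0.30 to 0.46) and 0.53 ± 0.46 for Xdh (-0.41 to 1.47). The Gda libraries spanned 122 to 277 CPM on control (median 176) and 138 to 328 CPM on MCD (median 213). At CT08 the Gda controls read 229.7, 233 and 262 CPM and the MCD libraries 284, 303 and 328 CPM. The diets were separate for Gda at CT04 and CT08 and overlapped at the other 4 times. At CT12 and CT16 its MCD mean was 0.963 and 0.969 of the control mean. Pnp spanned 53.2 to 77.2 and 51.7 to 73.5 CPM.

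The Uox change differed between the tissues. SCN minus liver was 1.01 ± 0.18 log2 (interval 0.64 to 1.38, edgeR adjusted p = 1.91e-05), called for 1 of 4 members and 34.7% of genes. Gda stood at 0.24 ± 0.12 (adjusted p = 0.129), and without control CT08 a it was called at 0.29 (0.0408).

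Gda was rhythmic in the SCN on both diets, 1 of 4 members each, against 15.1% of genes on control and 16.1% on MCD. Its curve spanned 0.86 log2 on control (edgeR adjusted p = 0.000166) and 0.98 on MCD (2.37e-05), with peaks at 9.9 ± 0.6 and 7.6 ± 0.6 h. In liver the same gene peaked at 15.1 and 13.8 h; this gap between the tissues was not tested. The difference in rhythm between the diets was called for 0 of 4 members by edgeR, DESeq2 and limma-trend, with 1 (Gda) at an unadjusted edgeR p under 0.05. Of all genes edgeR called 0.0127% for it, with 596 at an unadjusted p under 0.05, and DESeq2 called 8 and limma-trend 2. Sex was called for 0 of 4 members by all 3 tools, against 9.89% of genes by edgeR. None of the members lay at an unadjusted edgeR p under 0.05, against 4041 of all genes. The diet change differed by sex for 0 of 4 members by the 3 tools, also none at an unadjusted p under 0.05. Of all genes edgeR called 0% for that, with 826 at an unadjusted p under 0.05, DESeq2 called 1 and limma-trend 0.

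**Figure D4:**
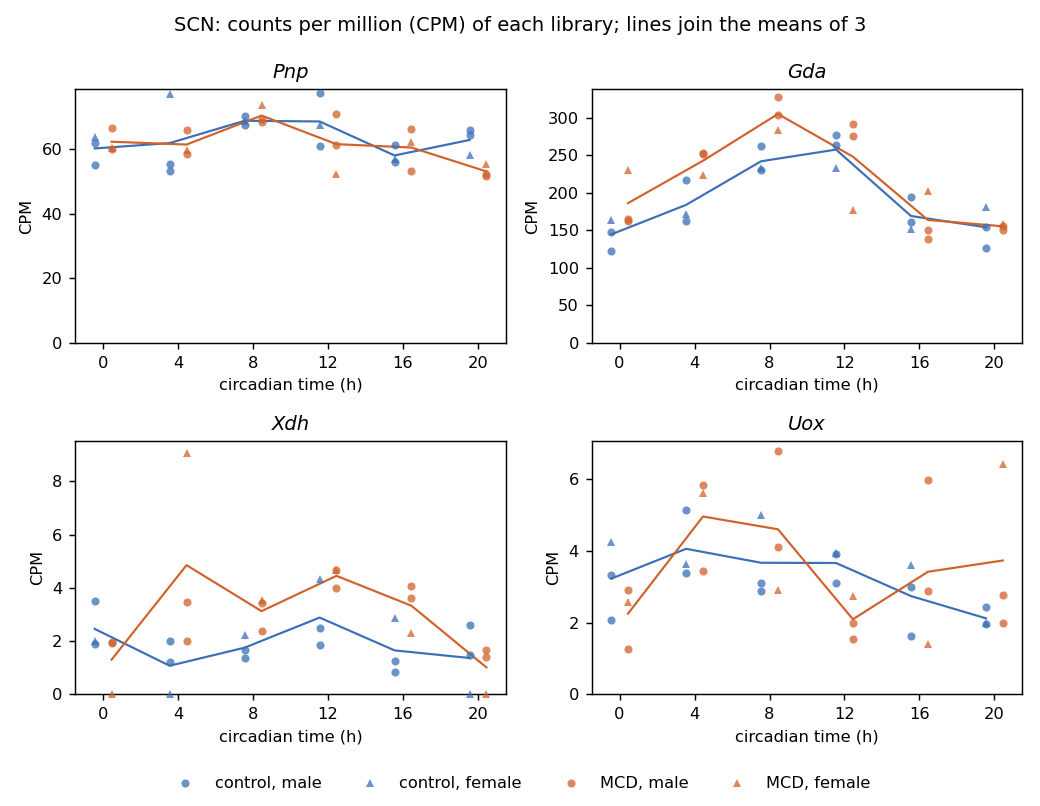
CPM of the 4 members with a row in the SCN table, in each library against circadian time in hours, by diet (colour) and sex (shape), with lines through the means of 3. Mean Gda is highest at CT12 on control and at CT08 on MCD, and 4 female libraries of Xdh are listed at 0.

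Uox and Xdh stood low in the SCN, at 1.26 to 6.79 CPM and at 0 to 9.07 CPM. The 4 libraries listed at 0 for Xdh were females (control CT04 and CT20, MCD CT00 and CT20), and their exon-bin files held 38, 3, 48 and 34 Xdh counts, so a 0 in the gene table went with reads in the bins. In the exon-bin sums Xdh was rhythmic on MCD in SCN at 1.89 log2 (edgeR adjusted p = 0.00947), while in the gene table it was not (2.16 log2, 0.264).

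The exon-bin files, which count reads per part of an exon, also cover the members without a row. Allc had 0 counts in all 72 files, and Urad in all 36 SCN files. A count of 0 allows up to 3 counts per file, for counting error only. Ada had 0 to 50 counts per SCN file (median 15), above 0 in 33 of 36, and 66 to 313 counts per liver file.

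Uox counts were shared differently among its 5′ exons in the 2 tissues. The files number its 21 bins without coordinates; cutting the M21 exons of each of the 7 genes gave the same number of bins as the files, and positions are given on that basis in GRCm38. Bin 1, at chr3:146570426-146570563, is the first exon of a single transcript, and bins 2 to 5, at chr3:146597077-146597233, hold the RefSeq start whose upstream bases are printed above. In liver, bins 2 to 5 took 6.05% of 3194704 Uox bin counts, between 4.98% and 6.98% in every library, and bin 1 took 0.00726%, or 232 counts, above 0 in all 36 files. In SCN, bins 2 to 5 took 0 of 5434 counts in 36 files, which allows a share of up to 0.0552% by counting error alone, and bin 1 took 5.13%, or 279 counts, above 0 in 28 files. The bin 1 counts of the tissues were thus alike in number, and its shares differ through the Uox total. By diet, bins 2 to 5 took 6.08% on control and 6.01% on MCD in liver, and bin 1 took 4.84% and 5.4% in SCN. The last bin, at chr3:146630648-146632305, took 19% in liver and 34.3% in SCN. These bins were picked after their counts were seen, so no test is given, and a read can count in more than 1 bin.

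**Figure D5:**
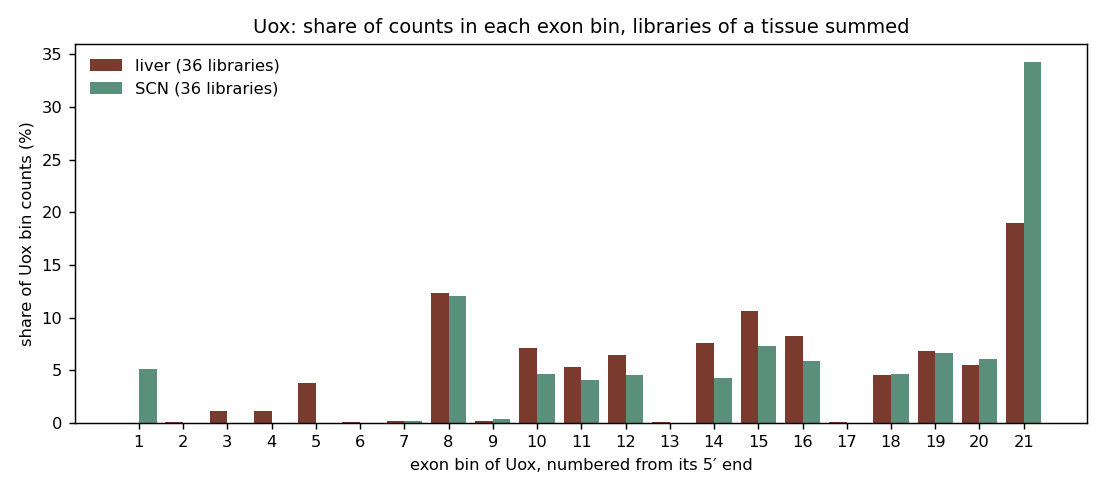
Share in percent of Uox exon-bin counts in each of 21 bins, numbered from the 5′ end, with the 36 libraries of a tissue summed. Bars of bins 3 to 5 are seen for liver and not for SCN, and the bar of bin 1 is seen for SCN.

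In SCN a larger share of counts lay toward the 3′ end for Gda, Xdh and Uox. For Gda, bin 1, at chr19:21391307-21393054 and last in the direction of transcription, took 22.4% of its bin counts in liver and 42.8% in SCN. Its neighbours, bins 2 and 3, took 14.2% and 19% in liver and 16% and 14.9% in SCN. For Xdh, bins 2, 3, 4 and 5, near its 3′ end, took 4.02%, 2.73%, 2.35% and 2.99% in liver and 8.44%, 6.23%, 4.42% and 5.05% in SCN. The last Uox bin is given above. For Ada, with 585 bin counts in SCN, bin 1, last in the direction of transcription, went the other way (9.29% in liver and 4.44% in SCN). Ada bins 2 and 3 took 8.31% and 11.2% in liver and 10.9% and 12.3% in SCN. For Pnp both bin 7 (24.9% and 33.7%) and the upstream bin 3 (0.11% and 0.506%) took more in SCN, and the last bin, 9, less (0.133% and 0.111%). The part of this 3′ lean in the exon shares of Uox was not tested; Uox bin 1 lies upstream of bins 2 to 5. Bin 20 of Gda, its most upstream exon, had 0 counts in both tissues. Bin 18, at chr19:21472368-21472588, took 2.8% and 1.15%, and bin 19 0.239% and 0.116%, both next to the start whose upstream bases are printed. These bins too were picked after their counts were seen.

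Other steps of purine metabolism were described from gene lists in liver, beside the all-gene median of 0.02 log2. As 46.6% of all genes were called, 25.3% higher and 21.2% lower, a list with about that share of calls does not stand out from all genes by its count. Of 7 listed genes for nucleotidases and AMP deaminases, not limited to steps from AMP and IMP, 4 rose and none fell (median 0.43). These were 4 calls of 7 against 46.6% of all genes. The cytosolic nucleotidases Nt5c3b, Nt5c2 and Nt5c rose by 1.30 ± 0.13, 0.43 ± 0.07 and 0.27 ± 0.06 log2 (SE), and AMP deaminase Ampd3 by 0.48 ± 0.09. Of 6 further enzymes near the members' steps 1 rose and 1 fell (median -0.06). Urah, which acts between Uox and Urad, fell from 176 ± 25.9 to 125 ± 15.8 CPM (-0.49 ± 0.06 log2, edgeR adjusted p = 6.16e-07). Lacc1, a purine-cycling enzyme of macrophages, rose by 0.34 ± 0.11 log2.

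Of 5 salvage genes 2 rose and 2 fell (median 0.01). Adenine phosphoribosyltransferase Aprt rose by 0.73 ± 0.09 log2 and Dck by 0.25 ± 0.08, while adenosine kinase Adk changed by -0.41 ± 0.06 and Dguok by -0.28 ± 0.04. Hprt, which salvages hypoxanthine and guanine, stood at 0.01 ± 0.04 (edgeR adjusted p = 0.839). Of 14 genes of purine synthesis 3 rose and 3 fell (median 0.06). IMP dehydrogenase Impdh1 rose by 0.84 ± 0.12 log2 while Impdh2 changed by -0.53 ± 0.06, Adssl1 by -0.63 ± 0.06 and Paics by -0.46 ± 0.05.

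Carriers of urate and nucleosides were split, 4 higher and 4 lower of 14 (median 0.14). The higher calls include Slc22a12, at a mean of 0.00785 CPM on control and 0.0644 CPM on MCD. Slc22a8, Slc28a1 and Slc28a2b, at 0.0533, 0.0935 and 0.141 CPM on MCD, had no usable SE. Their changes of 3.34, 1.53 and 2.35 log2, and 4.12 for Slc22a12, enter the median although these carriers were near the floor. The anion carrier Slc22a7 changed by -1.95 ± 0.25 log2, from 65.7 ± 31.1 to 17.8 ± 9.76 CPM, and the urate carrier Slc2a9 by -0.75 ± 0.08, from 44.4 ± 11.1 to 26.4 ± 5.95 CPM. Slc17a3 changed by -0.55 ± 0.12, and the nucleoside carrier Slc29a2 rose by 0.76 ± 0.11. Of 5 genes of the molybdenum cofactor, which Xdh carries, 1 rose and 1 fell (median -0.05). Mocos, which adds sulfur to the cofactor, fell by 0.48 log2 (SE 0.04), and Mocs3 rose by 0.39 (SE 0.09). Of 10 peroxisome genes 4 fell and 1 rose (median -0.09), 5 calls of 10 against 46.6% of all genes. The oxidase genes Pipox (-1.62 ± 0.09 log2) and Hao1 (-0.90 ± 0.12), catalase Cat (-0.76 ± 0.08) and the import receptor Pex7 (-0.33 ± 0.05) fell. Pex13, of the import machinery, rose by 0.18 ± 0.05, and the other 5 peroxin genes lay between -0.10 and 0.10, not called. Of 15 clock genes 3 rose and 3 fell (median -0.16), with Ciart at 0.80 ± 0.22, Per1 at 0.66 ± 0.23, Per3 at -0.64 ± 0.18 and Tef at -0.42 ± 0.09.

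The genes whose pattern over the 12 liver group means lay closest to a member's were found among 13839 genes of at least 1 CPM. Closest to Uox were Erlec1 (Pearson r = 0.961), Adssl1 (0.959) and Nedd4 (0.958), and to Urad Zfp971 (0.970), Ak3 (0.969) and Ndufb4 (0.962). Closest to Pnp were 4932438A13Rik (0.973), Clpx (0.962) and the clock gene Clock (0.960), and to Gda Ddt (0.975), Gm10138 (0.964) and Tspan4 (0.961). Closest to Xdh were Brpf3 (0.971), Trak2 (0.962) and Fez2 (0.954), and to Ada Tgfa (0.942), Apcs (0.941) and Gps1 (0.940). These are descriptions without a test, over points that share libraries, diets and times.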

How the data were processed

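The deposited gene tables, 1 per tissue, hold the authors' unnormalised counts of reads per gene, and 72 further files hold counts per exon bin, per the file headers. Trimmomatic, HISAT2, StringTie, DESeq2 and the build GRCm39 are named in the submitters' processing notes, without roles or versions. The kit marks strand, per the labels' protocols; whether the counting used it is not given in the sources used here. EdgeR 4.0.16 (R 4.3.3) fitted 1 model per tissue, with TMM scaling, its filter at a minimum count of 10, 12 diet and time groups, and a sex term; quasi-likelihood p-values were adjusted over all 20249 liver or 15759 SCN genes. The model between tissues held all 72 libraries as independent. Peak times came from a cosinor fit to log2 CPM (prior count 2; 0.5 moved no member's peak). Columns of the 2 control males at CT08 share a name and were used as a and b. Of the liver bin files, those of control CT00 1 and 2 end early, so bin sums of all genes held 34 liver libraries. The main fit per tissue was tested on simulated data for the diet effect, the rhythm on each diet, the rhythm difference and the sex-by-diet difference. The single-time and sex results, the model between tissues, the cosinor fit and the alternatives were not tested in this way. Alternatives were RLE factors, library totals, no filter, DESeq2 1.42.0, limma 3.58.1 (limma-trend), no sex term, a replicate block, the kind of library as a term, males alone, without control CT08 a, each library left out and, added after the data were seen, exon-bin sums. List genes named are the up to 4 per list with the largest liver change among called genes of at least 1 CPM; Hprt and Pex13 were added after their values were seen. The 3 genes most like each member were taken by Pearson's r. Members and lists were chosen with earlier results of these data known.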

Additional observations from a re-analysis of the deposited data

Results flagged for a closer look

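Urad and Pnp changed with the diet to a different degree in the 2 sexes in liver, by a fitted female minus male difference of -1.19 log2 for Urad and -0.46 log2 for Pnp. The rhythm of Uox in liver was 0.62 log2 wider on MCD than on control, with an earlier peak. The Uox diet change differed between the tissues, at 1.01 log2 as SCN minus liver. Counts were also found outside the gene tables. The SCN exon-bin files held 585 Ada counts in all, although the SCN gene table has no row for Ada. They held 279 Uox counts in the upstream exon, 5.13% of their Uox bin counts, where the liver files held 232, or 0.00726%.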

How the results depend on the processing

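The liver diet calls of Ada, Xdh, Uox and Urad held in direction and call under all 11 alternatives and with each of the 36 liver libraries left out. Pnp and Gda turned from below to above 0 with library totals (0.19 and 0.19 log2). The number of members called moved by over 1.5 times as follows. At CT00 it was 0 with exon-bin sums, which leave 1 control at that time, against 2. At CT04 it was 4 with library totals against 2. At CT08 it was 1 with DESeq2 or without control CT08 a, against 0. At CT12, against 1, it was 4 with library totals and 2 with DESeq2, RLE factors, exon-bin sums, the replicate block or without control CT08 a. At CT16 it was 1 with exon-bin sums against 2. The rhythm difference in liver gave 2 with DESeq2 against 1, the sex-by-diet difference 1 with exon-bin sums against 2, and the SCN rhythm on MCD 2 with exon-bin sums against 1. The tissue-by-diet difference gave 2 with the replicate block against 1, as Gda was then called (0.35 log2, edgeR adjusted p = 0.0178). Apart from the fewer libraries in the bin sums, the cause was not tested. With libraries left out, the count ranged from 0 to 1 at CT08, from 1 to 2 at CT12 and CT16, for the rhythm difference and for the tissue-by-diet difference. For the tissue results, 24 libraries, the first of each group, were left out in turn, and DESeq2, the kind of library, males alone and exon-bin sums were not run. Deviations of same-numbered libraries correlated at 0.07 to 0.43 in liver (median 0.24, over 0.1 in 13 of 16 pairs) and at -0.09 to 0.28 in SCN (8 of 16), so some shared variation goes with the number, but not in every pair, and the labels name no shared batch; the block was kept as an alternative. Number 3 is the female throughout, so the block holds sex. The replicate block moved no other count of members by over 1.5 times. Effects of depth were not tested; the lowest levels were those of Ada in liver and of Uox and Xdh in SCN. Counts over all genes moved by over 1.5 times as well. With library totals, 3971 genes were called at CT00 (2550 with TMM), 6475 at CT12 (3081), 4162 at CT16 (2532) and 3560 at CT20 (2288). DESeq2 called 656 at CT08 (edgeR 263), 2016 for the rhythm difference (986), 741 for sex by diet (359) and, in SCN, 48 for diet (10), 8 for the rhythm difference (2) and 1 for sex by diet (0). Males alone gave 1444, 2450, 54, 2000, 961 and 1495 from CT00 to CT20, 3624 for the MCD rhythm (5704), 537 for the rhythm difference and, in SCN, 1687 for the MCD rhythm (2544). Exon-bin sums gave 108 at CT00, 2046 for the control rhythm (3611) and 358 for the rhythm difference. Without the sex term 140 were called at CT08 and 6 for SCN diet. The replicate block gave 651 for the rhythm difference and, in SCN, 4 for diet and 1248 for the control rhythm (2378). The SCN rhythm difference fell to 1 with exon-bin sums, males alone, the block or no sex term.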
